A study of Mus musculus with 3 samples.

Results

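The 10 transcription factor genes studied here, all known from the embryonic aortic arch and outflow tract, were followed in the adult mouse aorta. They are Hand2, Dlx5, Dlx6, Tbx20, Gata6, Prrx1, Twist1, Foxc1, Msx1 and Mef2c. These 10 genes, out of 32285 in the files, were taken by name as a family, with no threshold on their values. They were chosen with earlier results of these data known, so shares of the factors set beside those of all genes are description. All 10 had UMIs in every library and all 10 passed the filter on low counts in each of the comparisons below. Every group held male C57BL/6J mice whose own Apoe gene had been replaced by a human APOE allele, APOE2, APOE3 or APOE4. They received a Western diet (42% fat, 0.2% cholesterol) for 16 weeks from 12 weeks of age. Cells of the whole aorta, from the arch down to the iliac split, were profiled by droplet single-cell RNA-seq in 1 library for each genotype, pooled from 6 mice (APOE2), 5 mice (APOE3) or 7 mice (APOE4). The barcodes do not show which mouse a cell came from, so differences between genotypes have no replicate check, and no group was fed chow or carried the mouse Apoe gene.

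The 3 libraries held 168310501 (APOE2), 125105151 (APOE3) and 124926887 (APOE4) UMIs in 11772, 6737 and 8248 cells. Cells were placed in classes by marker genes, none of which is one of the 10 factors, and most were smooth muscle-like (8761, 5474 and 6182 cells). The next classes in size were fibroblast-like (1271, 709 and 1021) and macrophage-like (401, 126 and 139), while 737, 295 and 390 cells met no rule and are called unassigned. Only 13 APOE3 and 21 APOE4 cells were endothelial-like, against 106 in APOE2. Between 14 and 27 barcodes were shared by each pair of libraries. In 5 clusters of cells over 90% came from 1 library, and they held 3415 APOE2, 88 APOE3 and 44 APOE4 cells, so ratios of the factors between libraries are also given below without them. Levels are in CPM, UMIs of the gene for each 1000000 UMIs of the summed cells, with the 95% counting interval in brackets where it matters.

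In the embryo, neural crest cells enter the pharyngeal arches and form the smooth muscle of the arch and proximal aorta, while more distal segments take their smooth muscle from mesoderm. Endothelin-1 from the arch epithelium acts through its receptor Ednra to switch on Dlx5 and Dlx6, which act upstream of Hand2 in the ventral arch. Position along the body axis is also recorded by posterior Hox genes, which stay expressed in the descending aorta, so Hox UMIs in a cell are used here as a label of position that does not rely on the 10 factors.

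Hand2, a basic helix-loop-helix factor of arch and heart mesenchyme, lies at chr8:57320983-57324633 on the plus strand of GRCm38 (ENSMUSG00000038193). Its neighbour Hand2os1 is transcribed from the opposite strand and overlaps 3251 bases of it. Dlx6, a distal-less homeodomain factor, lies at chr6:6863334-6868568 on the plus strand, and its paralog Dlx5 at chr6:6877805-6882085 on the minus strand, 9236 bases beyond the end of Dlx6. The antisense gene Dlx6os1 overlaps 5235 bases of Dlx6. Reads of overlapping genes on opposite strands are separated only by strand, and how the counting used strand was not stated in the sources used here. Tbx20 (chr9:24718138-24774303), a T-box factor of heart and outflow tract, Prrx1 (chr1:163245119-163313710), a homeodomain factor of mesenchyme, and Msx1 (chr5:37820485-37824583), a homeodomain repressor of facial and cushion mesenchyme, are on the minus strand. Twist1 (chr12:33957671-33959829), a helix-loop-helix factor of cranial mesenchyme, Foxc1 (chr13:31806633-31812476), a forkhead factor of arch arteries, and Mef2c (chr13:83504034-83667080), a MADS-box factor of muscle, are on the plus strand.

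The 250 bases before the start of Hand2, Tbx20 and Msx1 are shown because these genes were higher together in the Hox-negative cells and Tbx20 and Msx1 were higher in the Hand2-positive cells described below. Dlx5, Dlx6 and Gata6 were also higher in the Hox-negative cells. Such bases were not available for Dlx5 and Dlx6, and those of Gata6 are not shown. The sequences are from RefSeq (GRCm38.p6), 5′ to 3′ on the strand of the gene, at chr8:57320733-57320982 (plus), chr9:24774304-24774553 (minus) and chr5:37824586-37824835 (minus). Capitals mark every match, on either strand, to the E-box CANNTG bound by helix-loop-helix factors such as Hand2, the homeodomain core TAATTA, the GATA motif AGATAA and the TATA motif TATAAA.
Hand2: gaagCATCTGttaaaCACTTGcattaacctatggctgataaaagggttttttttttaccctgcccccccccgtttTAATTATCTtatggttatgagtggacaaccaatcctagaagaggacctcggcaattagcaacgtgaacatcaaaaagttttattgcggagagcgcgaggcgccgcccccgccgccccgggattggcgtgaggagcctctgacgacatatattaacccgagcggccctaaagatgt
Tbx20: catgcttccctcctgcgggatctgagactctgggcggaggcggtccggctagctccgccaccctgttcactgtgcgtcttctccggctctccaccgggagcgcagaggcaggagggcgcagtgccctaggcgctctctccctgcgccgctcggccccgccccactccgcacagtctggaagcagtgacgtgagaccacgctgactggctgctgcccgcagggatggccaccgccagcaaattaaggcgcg
Msx1: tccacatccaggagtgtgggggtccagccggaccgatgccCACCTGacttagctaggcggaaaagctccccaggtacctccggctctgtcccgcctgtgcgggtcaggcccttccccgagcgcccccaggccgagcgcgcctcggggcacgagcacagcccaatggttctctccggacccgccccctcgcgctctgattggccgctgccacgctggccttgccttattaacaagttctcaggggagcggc
Hand2 held 2 E-boxes and 1 homeodomain core, which overlaps 1 GATA match, in a window of 49.2% GC. Msx1 held 1 E-box (68.0% GC) and Tbx20 no match (68.8% GC). Over the 32851 windows of this length, 66.2% held CANNTG, 4.84% TAATTA, 9.99% AGATAA and 12.4% TATAAA, so an E-box is common and the homeodomain core is not. These matches describe letters only, not binding.

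The 10 factors were first compared across cell classes. Smooth muscle-like cells carried 89.4%, 93.2% and 90.2% of the Hand2 UMIs of the APOE2, APOE3 and APOE4 libraries, and also most UMIs of each other factor. They held most UMIs of all genes too, 136922633 of 168310501, 112291403 of 125105151 and 107333845 of 124926887. The mean CPM there was above that of all cells for Hand2, Tbx20, Gata6, Foxc1 and Mef2c. It was below for Dlx5, Dlx6, Prrx1, Twist1 and Msx1. Per class, Prrx1, Msx1, Dlx5 and Twist1 rose in fibroblast-like against smooth muscle-like cells, and Hand2, Foxc1, Gata6 and Mef2c fell. So 4 of 10 factors were higher and 4 of 10 lower, where 27.7% of the 16643 genes tested were higher and 32.1% lower. These shares of the factors are close to those of all genes. The test was edgeR's quasi-likelihood test on summed UMIs with library as a block, with Benjamini-Hochberg adjusted p under 0.05 taken as passing. Its log2 differences were fitted after TMM scaling between the sums. They can therefore differ from the ratios of the CPM printed beside them, which are not scaled in this way.

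Prrx1 stood at 368 (APOE2), 463 (APOE3) and 362 (APOE4) CPM in fibroblast-like cells and at 89.7, 78.6 and 75.5 CPM in smooth muscle-like cells. The 2 sets of libraries did not overlap, and the fitted log2 difference was 1.96 ± 0.11 (SE, n = 3 libraries, edgeR adjusted p = 3.89e-05). Unassigned cells lay between them at 199 ± 27.5 CPM (SD, n = 3), and macrophage-like cells were at 2.56 ± 3.65 CPM. Msx1 had 31.0, 37.1 and 35.8 CPM in fibroblast-like cells against 11.5, 15.4 and 15 CPM (log2 difference 1.00 ± 0.09, edgeR adjusted p = 0.000270), again without overlap, and its unassigned level of 28.5 ± 8.04 CPM overlapped the fibroblast-like one. Twist1 was 59.5, 74.2 and 63.7 CPM against 38.7, 44.7 and 42.4 CPM, with a fitted log2 difference of 0.32 ± 0.07 (edgeR adjusted p = 0.0107). The log2 ratios of these CPM were larger, at 0.62, 0.73 and 0.59. Without APOE3 the adjusted p of Twist1 was 0.0895.

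Dlx5 stood at 12.4, 11.8 and 8.08 CPM in fibroblast-like cells and at 5.11, 4.19 and 5.14 CPM in smooth muscle-like cells, 0.83 ± 0.18 higher on the log2 scale (edgeR adjusted p = 0.00868, and 0.0577 without APOE3). Dlx6, with 7.24, 6.69 and 5.39 against 3.59, 2.81 and 4.13 CPM, had a log2 difference of 0.56 ± 0.20 that did not pass (edgeR adjusted p = 0.0505), and it passed without APOE4 (0.85, adjusted p = 0.0281). The highest level of both was in neither class. Unassigned cells held 39.6 ± 15.1 CPM of Dlx5 and 27.5 ± 6.12 CPM of Dlx6, above the fibroblast-like and smooth muscle-like cells of every library. Of the 1422 unassigned cells, 93 and 77 lay in the clusters of 611 and 147 cells described below, which were high in both genes.

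Foxc1 had 47.0, 46.0 and 51.1 CPM in fibroblast-like cells and 93.4, 93.4 and 102 CPM in smooth muscle-like cells (log2 difference -1.32 ± 0.08, edgeR adjusted p = 5.45e-05). Mef2c, which drives muscle genes, had 81.9, 91.0 and 99.8 CPM against 267, 278 and 296 CPM (log2 difference -1.95 ± 0.08, edgeR adjusted p = 1.93e-05). For both, each fibroblast-like sum lay under each smooth muscle-like sum. Hand2 was lower within each library, at 41.1, 29.0 and 21.4 against 68.8, 38.5 and 26.1 CPM, but its 2 ranges overlapped because the libraries differed (log2 difference -0.81 ± 0.11, edgeR adjusted p = 0.00113, and adjusted p = 0.0786 without the library block). Gata6, a zinc-finger factor of smooth muscle on chromosome 18 (chr18:11052064-11085635, plus strand), had 148, 144 and 172 against 174, 159 and 207 CPM (log2 difference -0.54 ± 0.07, edgeR adjusted p = 0.00140). By the CPM alone, without TMM, the log2 ratios were nearer to 0. They were -0.74, -0.41 and -0.28 for Hand2 and -0.24, -0.14 and -0.27 for Gata6, so the size of these falls depends on the scaling. Tbx20 had 17.6, 0.697 and 3.34 against 17.1, 13.2 and 13.4 CPM. In APOE2 both classes were alike and in the other libraries the fibroblast-like level was far lower, so the difference did not pass over the 3 libraries (-1.63 ± 0.60, edgeR adjusted p = 0.0575) and passed without APOE2 (-2.98, adjusted p = 0.000322).

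**Figure D1:**
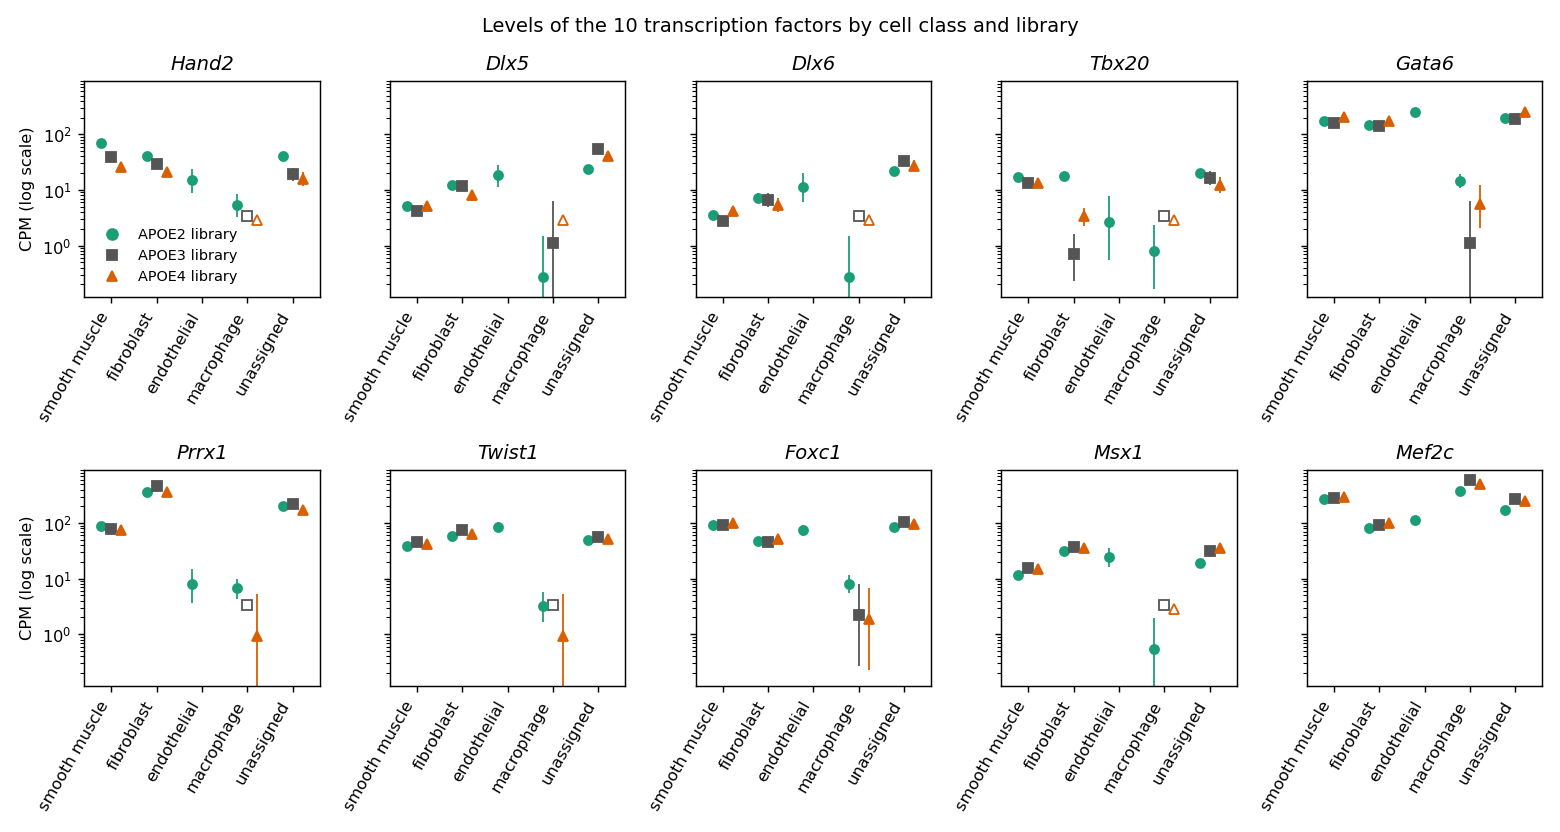
Level of each factor in 5 cell classes (CPM on a log axis), with 1 point for each library and its 95% counting interval; an open point is a sum with 0 UMIs, drawn at the limit of 3 UMIs, and sums of under 30 cells are left out. Prrx1 is highest in the fibroblast-like cells (362 to 463 CPM), Dlx5 and Dlx6 in the unassigned cells, and only Mef2c is as high in macrophage-like as in smooth muscle-like cells.

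Macrophage-like cells had few UMIs of all factors but Mef2c. Hand2 had 20 UMIs in APOE2 (5.39 CPM) and 0 in APOE3 and APOE4, which allows up to 3.34 and 2.83 CPM, and Gata6 had 14.5, 1.11 and 5.66 CPM. The 9 factors other than Mef2c were lower than in smooth muscle-like cells, 9 of 10, where 32.6% of 16174 genes were lower and 24.4% higher. Mef2c, which also acts in myeloid and B cells, stood at 375, 606 and 507 CPM in macrophage-like cells, higher than in smooth muscle-like cells of each library, with a log2 difference of 0.55 ± 0.26 that did not pass (edgeR adjusted p = 0.0748, and 0.0175 without APOE2). In the 237 B lymphocyte-like cells of APOE4 it reached 1364 CPM. Of the related genes, 1 of 14 paralogs tested was higher and 7 lower, 14 of 15 other outflow and neural crest factors were lower with Zeb2 the 1 that was higher, and of 7 endothelin pathway genes 2 were higher (Ednrb, Gnaq) and 5 lower. Of both noncoding neighbours, Hand2os1 and Dlx6os1, each was lower.

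Against smooth muscle-like cells, endothelial-like cells had 3 of 10 factors higher (Dlx5, Dlx6, Msx1) and 4 of 10 lower (Hand2, Tbx20, Prrx1, Mef2c), with 10.5% of 15303 genes higher and 13.2% lower. Dlx5 stood at 18.7, 21.4 and 38.6 CPM (21, 3 and 5 UMIs) and Mef2c at 113, 85.8 and 162 CPM, on either side of their smooth muscle-like levels. With 13 and 21 cells in APOE3 and APOE4, levels there rested on few UMIs. Several calls changed when 1 library was left out. Tbx20, called lower, was higher in APOE3, at 21.4 CPM from 3 UMIs against 13.2 CPM in smooth muscle-like cells. It was lower in APOE2 and APOE4. Endothelial-like Msx1 was highest in APOE3, at 100 CPM from 14 UMIs, with 24.9 CPM in APOE2 and 15.4 CPM in APOE4. Leaving out APOE2 left 0 factors called higher and 3 lower. Without APOE2 the edgeR adjusted p was 0.104 for Dlx5, 0.352 for Dlx6, 0.0571 for Msx1 and 0.862 for Tbx20. Dlx5 also missed without APOE4 (0.0614), Dlx6 without APOE3 (0.228) or APOE4 (0.125) and Msx1 without APOE3 (0.539), while Foxc1 (0.0442) and Twist1 (0.0270) passed without APOE3. By cluster, Dlx5 and Dlx6 had 28 and 18 UMIs in an endothelial-like cluster of 86 cells. Both had 0 UMIs in another, of 85 cells. Endothelin pathway genes were higher in 4 of 7 (Ednrb, Edn1, Ece1, Gnaq). Of the paralogs 2 of 15 were higher and 2 lower, of the other outflow factors 2 of 15 and 2, and Hand2os1 was lower.

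Relatives of the 10 factors moved in both directions in fibroblast-like cells. Of 17 paralogs tested 5 were higher (Twist2 with a log2 difference of 3.20 ± 0.17, Hand1 2.48 ± 0.65, Prrx2 2.05 ± 0.09, Tbx5, Tbx3) and 6 lower, Msx2 at -1.76 ± 0.43 among them, and their median log2 difference was 0.21 where that of all genes was -0.04. The other outflow and neural crest factors were higher in 10 and lower in 3 of 16, with Tcf21, a factor of epicardial and adventitial fibroblasts, at 4.23 ± 0.31, Snai1 at 3.50 ± 0.24, Zeb2 at 2.13 ± 0.09 and Hey2, a Notch target of smooth muscle, at -1.76 ± 0.13. The endothelin receptor gene Ednra was 2.45 ± 0.20 higher and 3 of 6 genes of its pathway were higher (Ednra, Ece1, Gnaq) and 2 lower (Gna11, Plcb3). Neither noncoding neighbour passed.

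Smooth muscle-like cells were then divided by position. Cells with at least 5000 UMIs were thinned to 5000, and those with 0 UMIs over 15 posterior Hox genes are called Hox-negative, those with 2 or more Hox-positive. Hox-negative cells made up 81.9% (APOE2), 73.8% (APOE3) and 69.1% (APOE4) of 7553, 5099 and 5876 cells and Hox-positive cells 7.35%, 10.4% and 12.6%. A cell without a Hox UMI may still express Hox genes below this depth, and over all their UMIs the Hox-negative cells kept 19.4, 29.9 and 36.7 Hox CPM against 339, 295 and 302. Hand2, Dlx6, Tbx20, Dlx5, Msx1 and Gata6 were higher in Hox-negative cells and Foxc1 and Mef2c lower. That is 6 of 10 factors higher and 2 of 10 lower, where 6.73% of 15174 genes were higher and 3.67% lower. Because the factors were chosen with earlier results of these data known, these shares are description.

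Hand2 had 79.0, 48.0 and 35.3 CPM in Hox-negative and 13.4, 4.61 and 2.98 CPM in Hox-positive cells. Every Hox-negative sum was above every Hox-positive sum, with a log2 difference of 3.03 ± 0.13 (SE, n = 3 libraries, edgeR adjusted p = 2.44e-07). Cells with 1 Hox UMI were between them in each library, at 22.5, 12.2 and 5.01 CPM. Tbx20 showed the same order, with 19.6, 16.3 and 16.7 CPM in Hox-negative cells, 5.98, 4.53 and 6.77 CPM with 1 Hox UMI and 3.03, 2.50 and 2.82 CPM in Hox-positive cells. Its log2 difference was 2.66 ± 0.11 (edgeR adjusted p = 1.73e-07), and the libraries lay close together at each step.

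Dlx5 had 5.57, 4.97 and 6.89 CPM against 1.63, 0.961 and 0.414 CPM, 2.64 ± 0.28 higher on the log2 scale (edgeR adjusted p = 0.000116). Dlx6 had 4.0, 3.31 and 5.53 against 1.05, 0.769 and 0 CPM (log2 difference 2.97 ± 0.45, edgeR adjusted p = 0.00131). The groups did not overlap for either gene. In APOE4, 416 Dlx6 UMIs in Hox-negative cells stood against 0 in Hox-positive cells, at least 22.3-fold higher with 3 UMIs taken as the limit of 0. With DESeq2 the adjusted p of Dlx6 was 0.223.

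Smaller differences separated the rest. Msx1 had 12.2, 16.6 and 16.4 against 8.29, 9.70 and 10.1 CPM (log2 difference 0.70 ± 0.08, edgeR adjusted p = 0.000301), with no overlap. Gata6 (179, 165 and 211 against 148, 142 and 197 CPM, log2 difference 0.20 ± 0.04, edgeR adjusted p = 0.00553), Foxc1 (90.8, 90.8 and 100 against 115, 102 and 107 CPM, -0.19 ± 0.05, adjusted p = 0.0231) and Mef2c (264, 274 and 291 against 295, 308 and 314 CPM, -0.14 ± 0.03, adjusted p = 0.0128) moved in the same direction in each library by little. Prrx1 (-0.13, edgeR adjusted p = 0.0644) and Twist1 (-0.04, adjusted p = 0.729) did not pass. The 3 small calls depended on single libraries. Without APOE2 the edgeR adjusted p of Foxc1 was 0.106, and without APOE3 it was 0.0678 for Gata6, 0.0966 for Foxc1 and 0.203 for Mef2c. Without the library block only Tbx20 of the 10 factors passed, and Hand2 was then at an edgeR adjusted p = 0.107, Dlx5 at 0.0601, Dlx6 at 0.237 and Msx1 at 0.326.

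**Figure D2:**
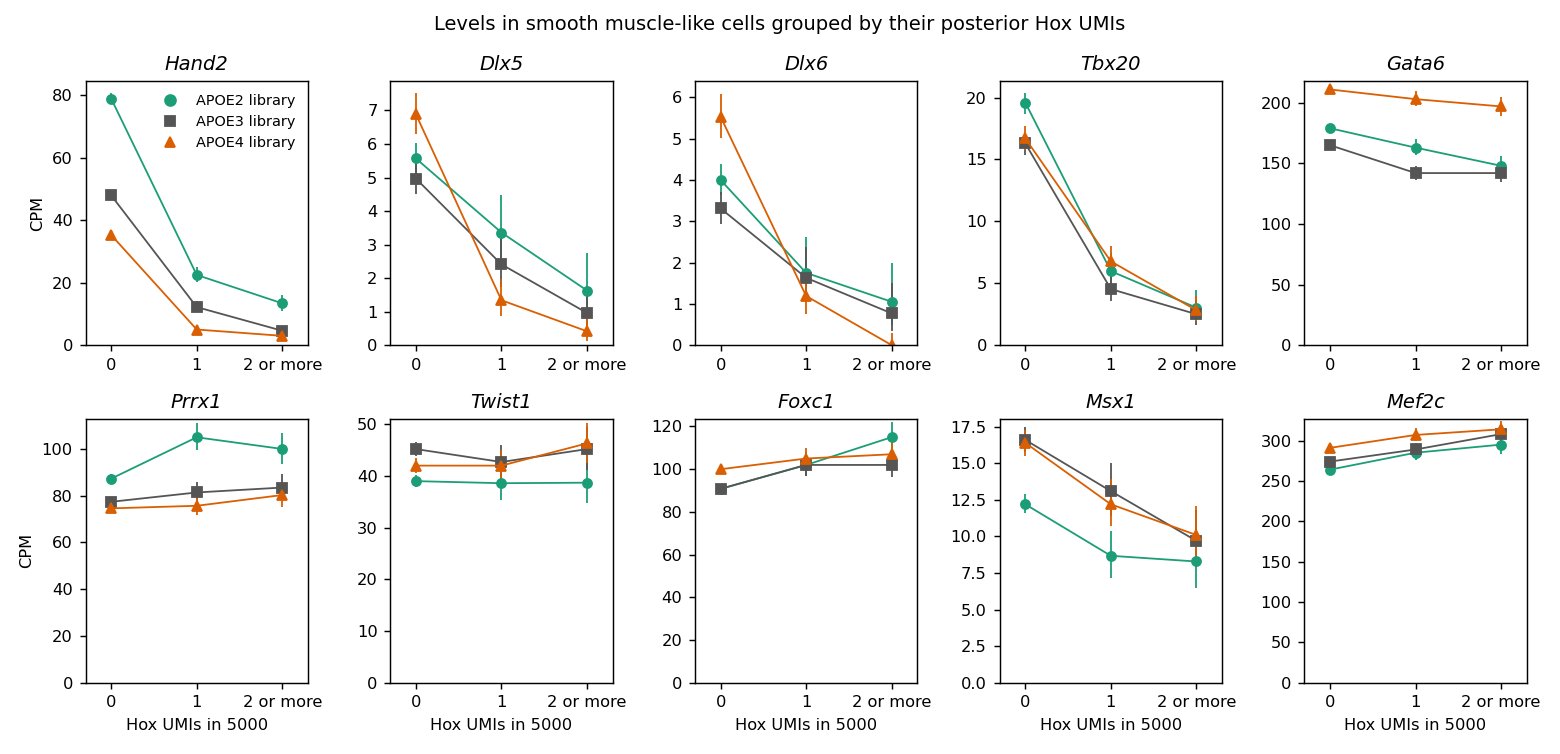
Level of each factor (CPM) in smooth muscle-like cells with 0, 1 or 2 or more posterior Hox UMIs in 5000, with 1 line for each library and 95% counting intervals. Hand2, Dlx5, Dlx6 and Tbx20 fall at each step from left to right in all 3 libraries, and Hand2 shows the libraries far apart (79.0, 48.0 and 35.3 CPM at 0 Hox UMIs).

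Some relatives of these factors followed the same split. Of 15 paralogs tested 5 were higher in Hox-negative cells, Msx2 (log2 difference 4.90 ± 0.54), Dlx2 (2.89 ± 0.65), Tbx3 (2.36 ± 0.45), Gata4 (2.34 ± 0.44) and Prrx2, and Tbx18 was lower (-0.65 ± 0.05), with a median log2 difference of 0.33. Both noncoding neighbours were higher, Dlx6os1 by 3.85 ± 0.51 and Hand2os1 by 3.51 ± 0.17, and Hand2os1 had 29.4, 15 and 8.36 CPM against 3.50, 0.961 and 0.414 CPM. In the endothelin pathway the receptor gene Ednra was higher (1.34 ± 0.18, edgeR adjusted p = 0.000619) the other 5 genes tested did not pass, and the median was 0.05. Among 15 other outflow and neural crest factors 7 were higher, led by the neural crest factors Tfap2a (4.26 ± 0.58) and Tfap2b (4.06 ± 0.42), Tcf21 (2.84 ± 0.50) and the second heart field factor Isl1 (2.74 ± 0.43), and Snai2 was lower, with a median of 0.23. The median of all genes was close to 0.

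The study, citing earlier work, lists genes localized to the arch, Hand2 among them, and genes of the descending aorta. Of the 7 listed arch genes other than Hand2, 5 were higher in Hox-negative cells (Pde1c 3.04 ± 0.15, Prss12 2.79 ± 0.16, Gng2 2.64 ± 0.46, Flrt3 2.50 ± 0.35, and Spp1) and Lbp was lower (-1.16 ± 0.32). All 8 descending genes were lower, but 6 of them are Hox genes that defined the groups, and the others were Sema3a (-1.66 ± 0.13) and Tnc (-0.98 ± 0.07). Across the other comparisons the arch genes were higher in 4 and lower in 1 of 6 in fibroblast-like cells, 1 and 1 of 6 in endothelial-like cells and 3 and 2 of 7 in macrophage-like cells. The descending genes were higher in 4 and lower in 2 of 8, 1 and 1 of 8, and 0 and 7 of 8, in the same order.

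Hand2 itself was detected in a part of the smooth muscle-like cells. After thinning to 5000 UMIs, 25.7% of APOE2 [24.7 to 26.7], 13.8% of APOE3 [12.8 to 14.7] and 9.75% of APOE4 cells [9.0 to 10.5] had a Hand2 UMI. In macrophage-like cells, which should lack the gene, the share was 3 of 275 cells (1.09%) in APOE2, 0 of 78 in APOE3, which allows up to 3.85%, and 0 of 86 in APOE4, which allows up to 3.49%. The median cell before thinning held 14564, 19933 and 15636 UMIs among these smooth muscle-like cells and 9977, 8844 and 9644 among the macrophage-like ones. Dlx6 was found in 1.58%, 1.12% and 1.62% of smooth muscle-like cells, against 0 of 275 macrophage-like cells in APOE2, which allows up to 1.09%. At 0 of 78 and 0 of 86 cells, the other libraries could not separate the Dlx6 shares from background.

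Cells with at least 1 Hand2 UMI after thinning (1938, 702 and 573) were compared with those with none. A cell without one may still express Hand2 below this depth. Over all their UMIs the Hand2-negative cells kept 38.9, 23.1 and 13.3 Hand2 CPM against 152, 131 and 136. Since Hand2 made the groups, only the other 9 factors were read. Tbx20 and Msx1 were higher and Prrx1 lower, 2 of 9 and 1 of 9, where 3.73% of 15911 genes were higher and 3.27% lower. Tbx20 had 22.8, 20.4 and 25 CPM in Hand2-positive and 15.1, 12.0 and 12.0 CPM in Hand2-negative cells, without overlap (log2 difference 0.81 ± 0.07, edgeR adjusted p = 1.72e-05). Msx1 had 13.2, 23.6 and 22.6 against 11.0, 14.1 and 14.0 CPM (0.59 ± 0.08, edgeR adjusted p = 0.000580), higher in each library though the ranges overlapped. Prrx1 had 78.2, 61.7 and 64.2 against 94.2, 81.4 and 76.8 CPM (-0.27 ± 0.04, edgeR adjusted p = 0.000714).

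The Dlx genes did not move with Hand2 in a common direction. Dlx5 had 3.82, 4.51 and 7.24 CPM in Hand2-positive and 5.56, 4.17 and 4.90 CPM in Hand2-negative cells (edgeR adjusted p = 0.999), and Dlx6 1.80, 2.76 and 5.81 against 4.23, 2.83 and 3.92 CPM (log2 difference -0.29, adjusted p = 0.604). Both were lower with Hand2 in APOE2 and higher in APOE4, and Dlx6 passed as lower without APOE4 (-0.72, adjusted p = 0.0432). Gata6 (adjusted p = 0.370), Mef2c (adjusted p = 0.0969), Foxc1 (adjusted p = 0.151, and 0.00390 without APOE2, -0.16) and Twist1 did not pass in edgeR's test. Posterior Hox levels moved with these groups, at 13.7, 15.2 and 14.3 CPM in Hand2-positive and 70.1, 84.1 and 98.8 CPM in Hand2-negative cells, and their part in the differences was not tested. Tnnt2 moved too, at 330, 171 and 95.3 against 153, 74.8 and 33.4 CPM. Without the library block none of the 3 calls passed (edgeR adjusted p = 0.185 for Tbx20 and 1.000 for Msx1 and Prrx1), and without APOE3, 220 genes were higher and 242 lower in place of 594 and 521.

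Hand2os1 rose with Hand2 (42.3, 30.2 and 20.4 against 19.6, 8.90 and 4.50 CPM, log2 difference 1.55 ± 0.13) and Dlx6os1 did not pass. Of 17 paralogs 2 were higher, Gata4 (1.48 ± 0.26) and Tbx2 (0.49 ± 0.09), and 3 lower, Tbx1 (-0.95 ± 0.18) and Tbx18 (-0.36 ± 0.05) among them, with a median log2 difference of 0.09. Other outflow and neural crest factors were higher in 4 and lower in 2 of 16 (median 0.07), and the cardiac and epicardial factors Tcf21 (1.2 ± 0.19) and Isl1 (1.16 ± 0.20) rose while Tfap2b fell by 1.99 ± 0.26. None of 7 endothelin pathway genes passed in either direction (median -0.03). The median of all genes was 0.00. Of the study's arch genes Flrt3 and Pde1c were higher and Spp1 and Prss12 lower out of 6, and all 8 descending genes were lower.

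**Figure D3:**
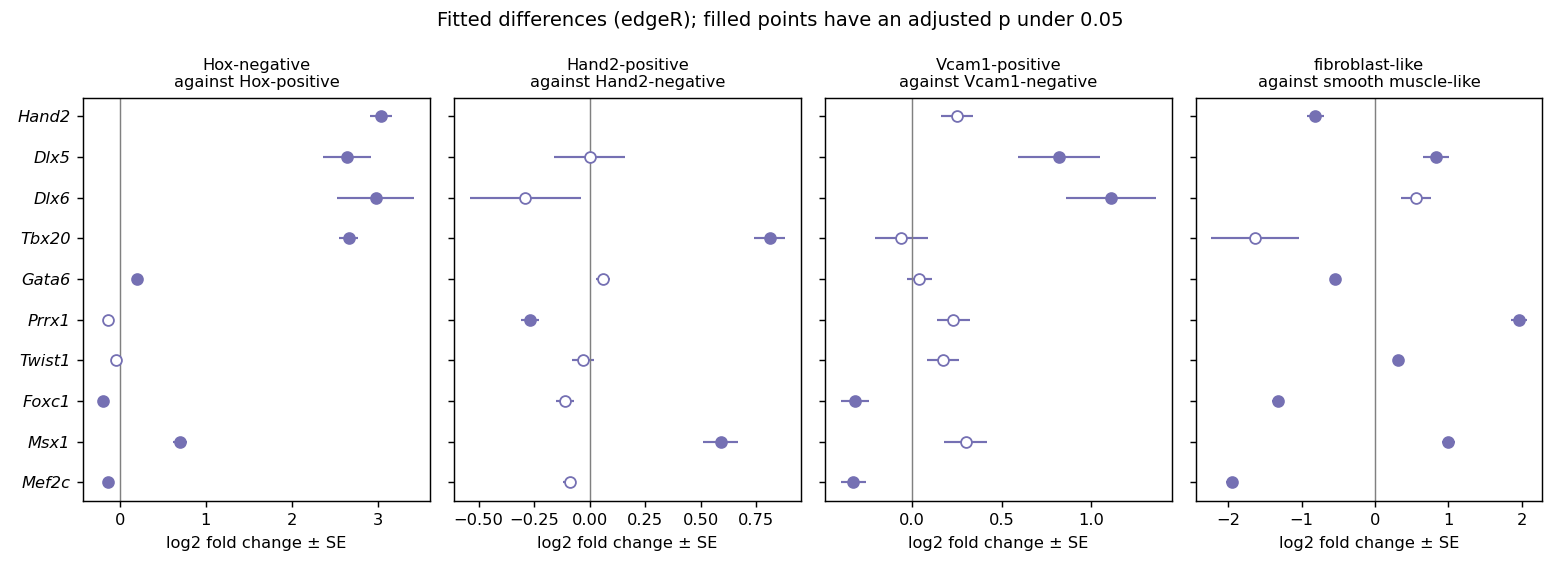
Fitted log2 differences of the factors in 4 comparisons within libraries (edgeR, bars are 1 SE, filled points have an adjusted p under 0.05); Hand2 is left out where it defined the groups. Hand2, Dlx5, Dlx6 and Tbx20 lie between 2.64 and 3.03 in the Hox comparison, while in the Hand2 comparison only Tbx20, Msx1 and Prrx1 are filled.

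Vcam1, an adhesion protein induced in activated smooth muscle, divided the cells in another way. Vcam1 UMIs were counted after thinning, in the same thinned smooth muscle-like cells as above. A cell with none may still express Vcam1 below this depth. Cells with 2 or more Vcam1 UMIs after thinning had higher Dlx6 and Dlx5 and lower Mef2c and Foxc1 than cells with none. That is 2 of 10 factors higher and 2 of 10 lower, where 7.96% of 15642 genes were higher and 4.20% lower. Dlx6 had 8.16, 6.33 and 3.95 CPM against 2.74, 2.74 and 4.10 CPM (log2 difference 1.11 ± 0.25, edgeR adjusted p = 0.0102) and Dlx5 10.2, 6.16 and 4.69 against 3.98, 4.01 and 5.12 CPM (0.82 ± 0.23, adjusted p = 0.0303). In APOE2 and APOE3 both were higher with Vcam1, and in APOE4 neither differed beyond counting error. Without APOE2 neither passed (edgeR adjusted p = 0.193 and 0.486).

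Mef2c had 201, 229 and 248 CPM in Vcam1-positive and 285, 285 and 300 CPM in Vcam1-negative cells (-0.33 ± 0.07, edgeR adjusted p = 0.00962, and 0.0635 without APOE3). Foxc1 had 67.4, 83.6 and 82.9 against 100, 94.9 and 103 CPM (-0.32 ± 0.08, edgeR adjusted p = 0.0239, and 0.0728 without APOE2). Neither gene's groups overlapped. Hand2 had 70.2, 43.8 and 33.3 against 67.8, 37.2 and 25 CPM, higher in each library by a log2 difference of 0.25 that did not pass (edgeR adjusted p = 0.0944; 0.34 and adjusted p = 0.0365 without APOE2), and Prrx1 passed only without APOE4 (0.36, adjusted p = 0.0214). Without the library block none of the 4 calls passed (edgeR adjusted p = 0.163 to 0.299). Prss12, a serine protease gene, moved with Vcam1 too, at 29.4, 15.2 and 10.4 against 4.46, 5.88 and 7.25 CPM, and its part in the Dlx difference was not tested. The 8 fibroblast markers summed to 1684, 492 and 275 CPM in Vcam1-positive against 200, 162 and 141 CPM in Vcam1-negative cells, and posterior Hox genes to 31.1, 30.5 and 50.3 against 61.9, 78.8 and 93.6 CPM. In APOE2 the neutrophil markers also stood at 165 against 7.94 CPM, the 10 macrophage markers at 117 against 14.5, the endothelial markers at 169 against 69.6 and the erythroid markers at 381 against 134 CPM, and 18514929 UMIs came from 586 Vcam1-positive cells against 102955785 from 6436 Vcam1-negative cells. The part of these in the differences was not tested.

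Of 14 paralogs 3 were higher in Vcam1-positive cells, Prrx2 (1.36 ± 0.17), Msx2 (1.06 ± 0.29) and Twist2 (0.83 ± 0.17), and Tbx18 was lower (-0.39 ± 0.09), with a median log2 difference of 0.42 where that of all genes was -0.01. Sox9, a factor of cartilage and of modulated smooth muscle, was higher (0.72 ± 0.14), and the Notch targets Hey2 (-0.50 ± 0.09) and Heyl (-0.47 ± 0.08) were lower, 1 and 2 of 15 (median 0.23). None of 6 endothelin pathway genes (median 0.14) or of the noncoding neighbours passed. Of the study's arch genes 3 of 6 were higher (Spp1 4.77 ± 0.25, Lbp 2.49 ± 0.36, Prss12 1.76 ± 0.29), and of its descending genes 1 of 8 was higher and 4 lower.

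Dlx5 was detected more often in cells with a Dlx6 UMI than in cells without one, though most cells with Dlx6 had no Dlx5 UMI at this depth. Among smooth muscle-like cells with a Dlx6 UMI after thinning, 21.8% (APOE2), 43.9% (APOE3) and 33.7% (APOE4) also had a Dlx5 UMI, of 119, 57 and 95 cells. Among cells without Dlx6 the shares were 1.59%, 1.17% and 1.23%. Over 22 class and library sums the Pearson correlation of their log2 levels was 0.933, a description, since sums of 1 library share their cells' source and depth. The sums also held the Hox-negative and Hox-positive cells beside the whole smooth muscle-like class, so many cells entered more than 1 sum. High values over these sums were not particular to this pair. Apart from Mef2c, correlations among the factors ran from 0.622 (Tbx20 and Twist1) to 0.959 (Gata6 and Foxc1), with Dlx6 and Hand2 at 0.838. By the rule of closest pattern over these sums, the genes nearest to Dlx6 were Adamtsl1 (r = 0.922), Cx3cl1 (0.913) and Pcdh9 (0.907), and those nearest to Dlx5 were Adamtsl1 (0.919), Hand2os1 (0.915) and Gxylt2 (0.904).

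In a clustering made without the 10 factors, 1 smooth muscle-like cluster of 611 cells (260, 131 and 220) held 40.0% of all Dlx5 and 52.6% of all Dlx6 UMIs. Its levels were 81.6, 119 and 83.6 CPM of Dlx5 and 84.2, 107 and 73.5 CPM of Dlx6. Msx2, Tfap2b and Dlx6os1 were among its leading genes. The overlapping Dlx6os1 and Hand2os1 were not kept out of the clustering, and their part in it was not tested. A fibroblast-like cluster of 147 cells (57, 34 and 56) held a further 10.9% and 12.5%, with Prss12 among its leading genes and 91.4, 162 and 84.7 CPM of Dlx5. Hand2 was low there (8.79, 4.85 and 2.14 CPM) and Msx1 high (63.3, 69.5 and 90.1 CPM). By the marker rules, 93 of the 611 cells and 77 of the 147 cells were unassigned, so the names of the clusters do not hold for each cell. The 2 clusters were present in all 3 libraries and are given as description, without a test.

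Prss12 was a leading gene of the fibroblast-like cluster of 147 cells, but not of the smooth muscle-like cluster of 611 cells. Smooth muscle-like cells with and without a Prss12 UMI after thinning (163, 128 and 132 with one) were therefore set side by side. A cell without one may still express Prss12 below this depth. The choice of Prss12 was made after the values were seen and is untested. Dlx5 had 46.5, 59.7 and 57.0 CPM with Prss12 and 3.64, 2.75 and 3.71 CPM without. Dlx6 had 35.9, 52.0 and 47.6 CPM against 2.45, 1.52 and 2.91 CPM. Both genes were high in these cells of every library. Msx1 (17.6, 25.8 and 31.3 against 11.4, 15.2 and 14.5 CPM) and Prrx1 (161, 163 and 141 against 87.5, 76.4 and 73.7 CPM) were also higher, and Tbx20 lower (9.25, 5.23 and 7.65 against 17.4, 13.4 and 13.5 CPM). Hand2 was lower in APOE2 and APOE3 and slightly higher in APOE4 (48.3, 33.1 and 29.9 against 69.8, 38.7 and 26.1 CPM). Fibroblast markers summed to 1337, 766 and 573 CPM with Prss12 against 459, 202 and 164 CPM without, smooth muscle markers to 46210, 50094 and 41519 against 55253, 62395 and 58142 CPM, and posterior Hox genes to 26.7, 33.5 and 34.1 against 56.1, 75.3 and 91.5 CPM. In APOE2 macrophage markers stood at 110 against 36.3 CPM. The part of these in the differences was not tested.

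**Figure D4:**
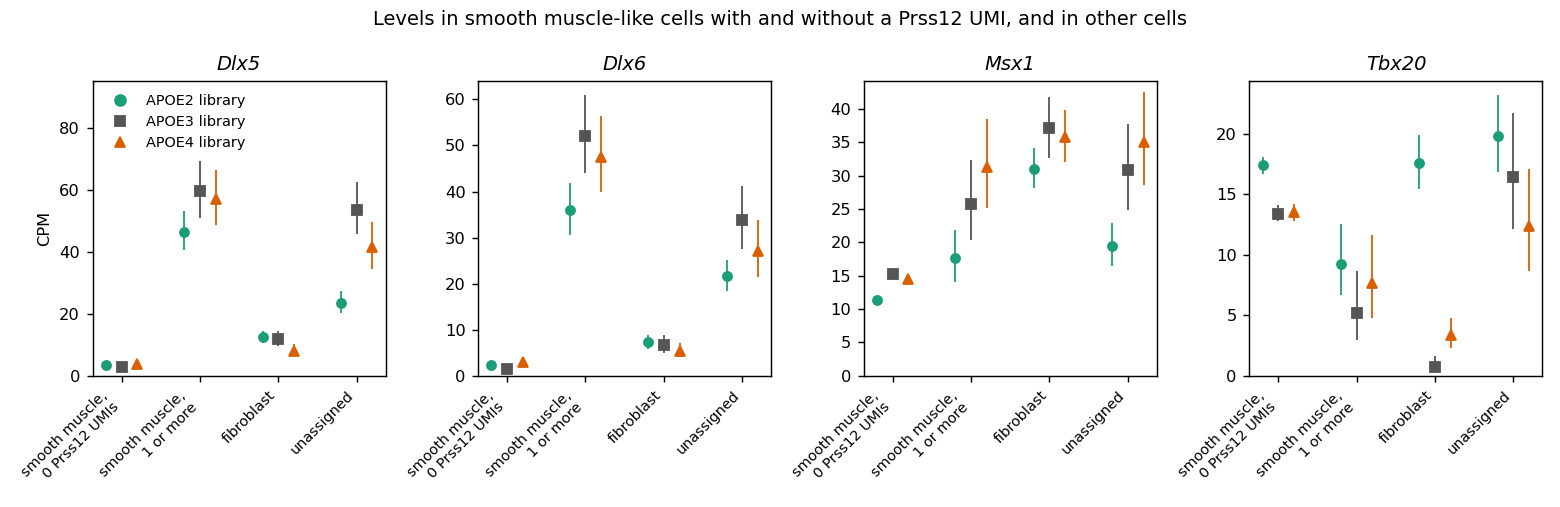
Level of Dlx5, Dlx6, Msx1 and Tbx20 (CPM) in smooth muscle-like cells split by Prss12, in fibroblast-like and in unassigned cells. The split is between 0 and 1 or more Prss12 UMIs left after thinning. Each library has 1 point with its 95% counting interval. Dlx5 and Dlx6 stand at 35.9 CPM or more with Prss12 and under 4 CPM without, and Tbx20 shows the opposite order.

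Other members followed other genes over the 22 sums. Nearest to Hand2 were Gnao1 (r = 0.906), Nol3 (0.897) and Itgb8 (0.892), and to Msx1 Arhgap44 (0.970), Ltbp2 (0.958) and Gm14964 (0.946). Prrx1 was nearest to Adamts2 (0.978), Epha3 (0.975) and Mn1 (0.973), Twist1 to Ccdc80 (0.976), Ppic (0.975) and Tead1 (0.969), and Foxc1 to Emp2 (0.981), Fermt2 (0.979) and Rbfox2 (0.977). Gata6 was nearest to Fstl1, Crip2 and Ltbp4 (each 0.980) and Mef2c to BC028528 (0.906), Chst3 (0.863) and Lgmn (0.842). Mef2c stood apart from the other 9 factors, with which its correlations ran from 0.041 to 0.438.

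Between the genotype libraries, Hand2 differed most in smooth muscle-like cells. It stood at 68.8 CPM in APOE2 [67.4 to 70.2], 38.5 in APOE3 [37.3 to 39.6] and 26.1 in APOE4 [25.2 to 27.1]. APOE2 was thus 1.79-fold above APOE3, a log2 ratio of 0.84 with an interval of 0.79 to 0.89, and APOE4 was lower than APOE3 by a log2 ratio of -0.56. Counting a ratio of 1.5 in either direction, 1 of 10 factors was that far apart between APOE2 and APOE3, 0 between APOE4 and APOE3 and 1 between APOE4 and APOE2, each time Hand2. Of all genes with at least 50 UMIs, 12.8%, 12.0% and 18.1% were that far apart. With 1 pool for each genotype there is no test, and genotype cannot be told apart from the pool or from how much of each segment entered it.

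The Hox label of position differed between the libraries, while the share of each segment in a pool was not measured. Posterior Hox genes summed to 55.3, 74.3 and 89.9 CPM in smooth muscle-like cells, in the opposite order to Hand2. Hox-negative cells kept 19.4, 29.9 and 36.7 CPM of these Hox genes, again in the opposite order to Hand2, so their Hox levels were not equal between libraries. Among these cells alone Hand2 kept its order, at 1.65-fold between APOE2 and APOE3 (log2 ratio 0.72, interval 0.67 to 0.77) and at -1.16 between APOE4 and APOE2 (interval -1.23 to -1.10). Here 1 of 10 factors was 1.5 times apart in each pair, Hand2 in those 2 pairs and Dlx6 between APOE4 and APOE3 (5.53 against 3.31 CPM, log2 ratio 0.74, interval 0.52 to 0.96), where 11.7%, 16.9% and 11.3% of genes were. Hox-positive cells had the same order of Hand2 levels, 13.4, 4.61 and 2.98 CPM, though APOE3 and APOE4 were not separated by counting error (log2 ratio -0.63, interval -1.29 to 0.02). The part of position in the library differences was not tested beyond these values.

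Cells of library-specific clusters weighed on these ratios. The libraries were clustered together without integration. Such clusters therefore cannot be told apart from a shift over a whole library. The APOE2 clusters of 2041 and 992 APOE2 cells had 99.9 and 104 CPM of Hand2 and held 16.0% and 6.25% of all Hand2 UMIs. A further 6.14% lay in an unnamed cluster of 220 cells, 218 of them from APOE2, at 78.3 CPM. Its cells held a median of 4.66 times the UMIs of their library's median cell, and 9 endothelial markers were raised in it. Without the 5 clusters over 90% from 1 library, a choice made after seeing the data, the log2 ratio of Hand2 between APOE2 and APOE3 was 0.43 in smooth muscle-like and 0.35 in Hox-negative cells, below 1.5-fold, and between APOE4 and APOE2 it was -0.99 and -0.79. Dlx6 then took the place of Hand2 between APOE2 and APOE3 (0.80 and 0.79). Within the cluster of 611 cells, which held 52.6% of all Dlx6 UMIs, APOE3 was instead the highest (84.2, 107 and 73.5 CPM). That cluster had 260, 131 and 220 cells, and the part of its size in the Dlx6 ratios was not tested. In Hox-positive cells the Hand2 ratio without the library-specific clusters was 0.89 between APOE2 and APOE3 and -1.52 between APOE4 and APOE2. Hand2 was also read within the smooth muscle-like clusters with at least 30 cells from each library. It was highest in APOE2 and lowest in APOE4 in each but the cluster of 611 cells (20.9, 15.4 and 26.4 CPM). The largest of them, of 2913 cells, had 31.1, 23.9 and 16.1 CPM. These orders were not tested. Hand2os1, not kept out of the clustering, was a leading gene of the clusters of 2041 and 992 APOE2 cells. It followed the order of Hand2, with 25.6, 12.0 and 6.17 CPM in smooth muscle-like cells. So did Tnnt2, a troponin gene of heart muscle, with 200, 88.2 and 39.7 CPM, while the other 5 cardiomyocyte markers stood between 0 and 2.08 CPM, Myl7 at 0 in APOE4. Fibroblast markers summed to 495, 222 and 175 CPM in these cells, macrophage markers to 39.9, 8.72 and 7.76 CPM, neutrophil markers to 46.5, 1.59 and 1.10 CPM and erythroid markers to 197, 86.7 and 89.4 CPM. All 4 sums were highest in APOE2, and their part in the Hand2 ratio was not tested.

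**Figure D5:**
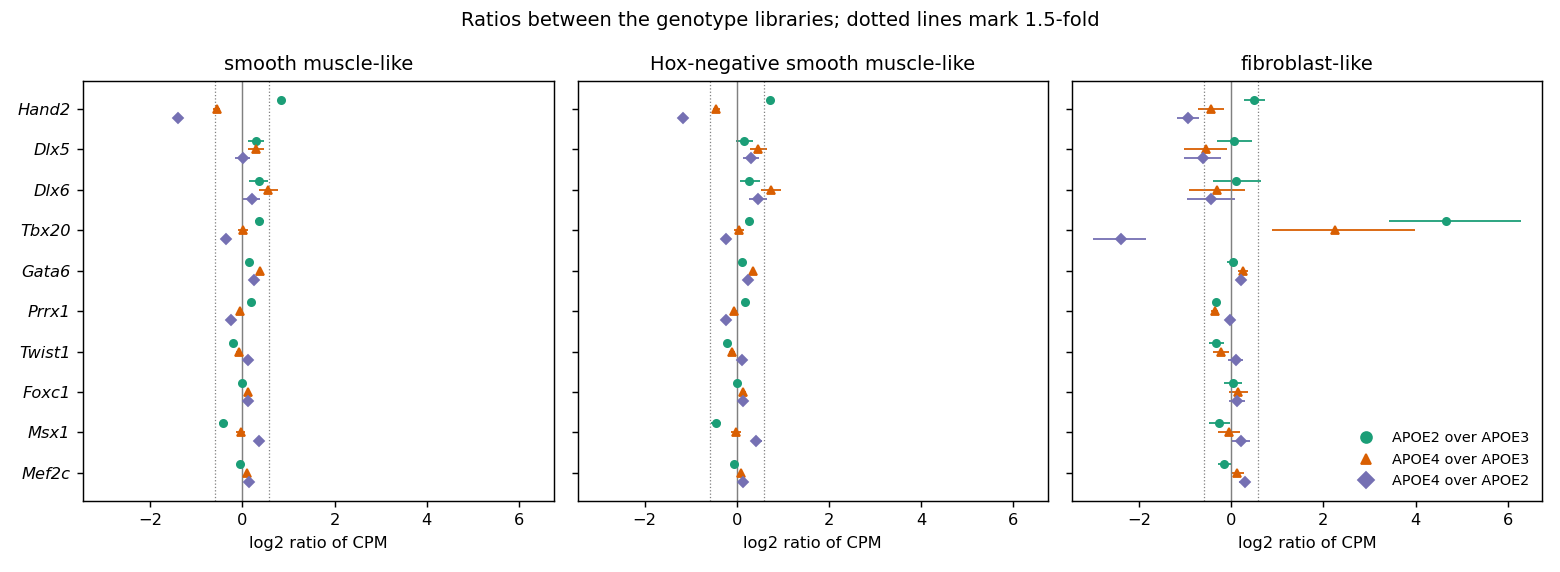
Log2 ratio of CPM between pairs of genotype libraries for each factor in smooth muscle-like, Hox-negative and fibroblast-like cells, with 95% counting intervals and dotted lines at 1.5-fold. Hand2 lies beyond the lines in both smooth muscle panels for the 2 pairs with APOE2, and Tbx20 in fibroblast-like cells has the widest ratio drawn (4.66). The ratio of APOE4 to APOE3 there rests on under 50 UMIs.

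In fibroblast-like cells Tbx20 was 25.3-fold higher in APOE2 than in APOE3, from 243 and 5 UMIs (log2 ratio 4.66, interval 3.42 to 6.29), and APOE4 with 31 UMIs lay below APOE2 by a log2 ratio of -2.40. It was the 1 factor of 10 that was 1.5 times apart between APOE2 and APOE3, where 12.4% of genes were. Between APOE4 and APOE2 3 of 10 were, Tbx20, Hand2 (-0.94, interval -1.18 to -0.70) and Dlx5 (-0.62, interval -1.03 to -0.22), each lower in APOE4, where 13.8% of genes were. Between APOE4 and APOE3 0 of 9 measured factors were, where 10.7% of genes were. With classes taken from clusters, the ratio of Dlx5 was -0.09. Without the library-specific clusters the APOE4 to APOE2 ratios of Hand2, Dlx5 and Tbx20 were the same to 2 decimals.

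The fibroblast-like class was a different mix of clusters in each library. The cluster led by Opcml, Sdk1 and Ebf2 held 51.9% of these cells in APOE2, 20.5% in APOE3 and 14.2% in APOE4, and the cluster led by Fmod, Dio2 and Tgfbi held 34.3%, 64.0% and 71.4%. Of the 243 Tbx20 UMIs of APOE2, 214 lay in the Opcml cluster. Tbx20 there stood at 28.4 CPM in APOE2, at 0 UMIs in APOE3, which allows up to 1.58 CPM, and at 1.17 CPM in APOE4 from 2 UMIs. In the Fmod cluster it had 1.98, 1.04 and 4.19 CPM, and there APOE2 was not the highest. Hand2 had 47.1, 29.9 and 29.7 CPM in the Opcml and 27.7, 30.1 and 20.5 CPM in the Fmod cluster. Its APOE4 to APOE2 log2 ratio was thus -0.67 (interval -1.12 to -0.24) and -0.43 (interval -0.80 to -0.06) within the clusters, both nearer to 0 than over the class. That of Dlx5 was -1.35 (interval -1.93 to -0.78) in the Fmod cluster and rested on 6 APOE4 UMIs in the other. This division was chosen after the values were seen and has no test.

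The Tbx20 UMIs of the APOE2 fibroblast-like cells came from 95 of 1271 cells, with at most 14 in 1 cell. These cells were chosen after their values were seen, so what follows is description. They were taken on all UMIs, without thinning. Their median was 15769 UMIs, against 8942 in the APOE2 fibroblast-like cells without Tbx20, and the part of depth was not tested. They had 31.4 CPM [23.6 to 40.9] of Gata4, a cardiac and mesothelial GATA factor, against 3.97 CPM in the APOE2 fibroblast-like cells without Tbx20, and 63.9 against 37.9 CPM of Hand2. Smooth muscle markers made up a median of 0.0551% of their UMIs against 0.0913% in the others, and fibroblast markers 1.66% against 2.12%. In APOE3 and APOE4, 3 and 8 fibroblast-like cells had a Tbx20 UMI and none of them a Gata4 UMI, which allows up to 81.8 and 24.7 CPM, so a Gata4 level as in APOE2 was not detectable in APOE3 and lay near the limit in APOE4. Over all fibroblast-like cells mesothelial markers summed to 1.66, 11.6 and 2.16 CPM, and their part in the Tbx20 levels was not tested.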

How the data were processed

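Aortic single-cell RNA-seq of 3 libraries, 1 pool of mice for each APOE genotype, was analysed. The authors aligned reads to mm10 with Cell Ranger and deposited raw UMI counts per gene and barcode, without normalization. The version recorded with the counts was 7.0.1, while the paper gives a different version. Every other value was computed here from these counts. Symbols and positions were matched to GENCODE vM21 for 32158 of 32285 gene IDs.

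Cells with fewer than 200 genes or 20% or more mitochondrial UMIs were left out. These limits were set here, and the limits the study used are not given in the sources used here. A cell took a class, called X-like, when its markers passed a set number and share of UMIs (for smooth muscle at least 5 of 10 markers and 2% of UMIs). Cells meeting several rules were left out as mixed, which also served as the treatment of doublets, since the threshold of Scrublet in scanpy 1.11.5 marked almost none. These class names were rebuilt here and may differ from the study's. Thinning drew UMIs without replacement with a fixed seed, and the sums tested used all UMIs of the chosen cells. Clusters (Leiden, resolution 1) were made without the 10 factors, but their antisense neighbours Hand2os1 and Dlx6os1 were not kept out. The cells of the 3 libraries were clustered together without integration, while the study integrated its libraries before clustering.

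UMIs were summed by class and library. Classes and subsets were compared within libraries by edgeR 4.0.16 in R 4.3.3 (quasi-likelihood test, TMM, filterByExpr, library as a block), with Benjamini-Hochberg adjustment over all genes tested and a threshold of 0.05. The spread behind these p-values is that between 3 pools of different genotype, and nothing replicates a genotype. The test was also run on simulated data for the fibroblast-like and Hox comparisons, with library effects the same in both classes. Real differences varied between libraries, as for Tbx20 in fibroblast-like cells, so no support is drawn from that run. Genotypes were compared only as log2 ratios of CPM, over genes with at least 50 UMIs in the pair. Intervals (exact Poisson, conditional binomial and Clopper-Pearson, 95%) cover counting error only, and a count of 0 was given a limit of 3 UMIs. At these depths smooth muscle-like values are precise and endothelial-like values of APOE3 and APOE4 are not.

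The members and the gene lists were chosen with earlier results of these data known. The named genes were all members, up to 4 genes of each list with the largest change among those passing, some others named where counts were small, and the 3 genes closest to each member by Pearson correlation of log2(CPM + 1); those of Tbx20 are not reported here. Alternatives were DESeq2 1.42.0, its size factors in edgeR, no filter on low counts, no block, leaving out each library, stricter filters on cells, removal of the highest 6% of Scrublet scores, classes from clusters, class limits multiplied by 1.5, other thinning depths, a limit of 3 Hox UMIs, other scalings, and removal of library-specific clusters.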

Additional observations from a re-analysis of the deposited data

Results flagged for a closer look

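The differences of 3 genes had opposite directions in 2 libraries, each with a counting interval clear of 0, and none of these differences between libraries was tested. The log2 ratio of Dlx5 between Hand2-positive and Hand2-negative smooth muscle-like cells was 0.56 in APOE4 and -0.54 in APOE2. For Dlx6 in the same cells it was 0.57 in APOE4 and -1.24 in APOE2. For Gata6 between Vcam1-positive and Vcam1-negative cells it was 0.11 in APOE4 and -0.09 in APOE2.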

How the results depend on the processing

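Of the 659 results of tests recomputed under alternatives, 563 kept their direction and side of the threshold. Counts of factors below are to be read beside the shares of all genes given with each comparison above.

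In the Hox comparison 1021 genes higher and 557 lower became 651 and 288 with DESeq2, 624 and 271 with thinning to 3000 UMIs and 28 and 20 without the library block, and 341 were lower with at least 3 Hox UMIs. Factors called higher numbered 1 without the block, and lower 0 without it and 1 with DESeq2. Twist1 turned to 0.09 and 0.06 with thinning to 3000 and 10000 UMIs.

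In the Hand2 comparison 594 and 521 genes became 345 and 278 with DESeq2 and 0 and 4 without the block (with no factor called, 0 higher and 0 lower), and 893 were lower with no filter, 3 factors among them. With thinning to 10000 UMIs 2 factors were lower. Dlx5 turned to 0.07 with DESeq2, 0.00 with its size factors and with stricter cells, 0.10 without the block, 0.03 without the highest Scrublet scores, and 0.11 and 0.12 with thinning to 3000 and 10000 UMIs.

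In the Vcam1 comparison 1245 and 657 genes became 94 and 7 without the block (0 and 0 factors), and 1525 were lower with no filter, under which Gata6 turned to -0.04. Factors higher numbered 1 with DESeq2, 1 without the highest Scrublet scores and 4 with thinning to 10000 UMIs, when 1 was lower and Tbx20 turned to 0.05. With DESeq2 1133 genes were lower in endothelial-like cells. Mef2c became the 1 factor higher in macrophage-like cells with DESeq2, its size factors, no block, without the highest Scrublet scores and with classes from clusters.

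Without thinning, Hand2 was found in 43.8%, 31.8% and 20.4% of smooth muscle-like cells and Dlx6 in 3.23%, 2.74% and 3.67%, and at 3000 UMIs in 17.7%, 9.66% and 6.21% and in 0.875%, 0.721% and 0.971%. Hand2 in Hox-positive cells turned to 0.31 between APOE4 and APOE3 with thinning to 3000 UMIs. Scaling by the median gene put 1 factor 1.5 times apart between APOE4 and APOE3 in smooth muscle-like cells, and classes from clusters or the mean over cells put 2 apart between APOE2 and APOE3 in fibroblast-like cells. The causes were not tested.

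Leaving out each library in turn gave 860 to 1453 genes higher and 1111 to 1792 lower in endothelial-like cells, 641 to 921 and 240 to 526 in the Hox comparison (fewest without APOE3), 220 to 811 and 242 to 566 in the Hand2 comparison and 375 to 737 lower in the Vcam1 comparison. Twist1 ranged from -0.06 to 0.02 in the Hox and from -0.07 to 0.03 in the Hand2 comparison, Dlx5 from -0.24 to 0.37 and Dlx6 from -0.72 to 0.33 in the Hand2 comparison, and Tbx20 from -0.21 to 0.24 and Gata6 from -0.01 to 0.07 in the Vcam1 comparison. Factors called higher ranged from 2 to 5 in fibroblast-like, 0 to 2 in endothelial-like and 0 to 1 in macrophage-like cells. With every library kept, 27.7%, 10.5% and 24.4% of all genes were higher there. They ranged from 5 to 6 in the Hox and 1 to 3 in the Vcam1 comparison (6.73% and 7.96% of genes). Factors called lower ranged from 0 to 2 in the Hox and 1 to 2 in the Hand2 and Vcam1 comparisons (3.67%, 3.27% and 4.20% of genes). Genes higher in these refits numbered 3567 to 4385 in fibroblast-like cells, 3263 to 3741 in macrophage-like cells and 892 to 1486 in the Vcam1 comparison.

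No paired analysis was possible because each genotype has 1 library, which concerns the ratios between genotypes; the comparisons within libraries were paired by the library block. With 13 and 21 endothelial-like cells in APOE3 and APOE4, levels there rest on few UMIs.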
